A study of Mus musculus with 7 samples.

Results

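Mitochondrial ribosomal proteins are the protein subunits of the ribosome that works inside mitochondria, and their transcripts were compared between pancreatic islets of pregnant mice with 1 or 2 intact prolactin receptor alleles. The genes were chosen by symbol: a probe set with a single gene symbol that starts with Mrpl or Mrps followed by a digit. This gave 77 of the 19938 genes measured, 48 named for the large and 29 for the small ribosomal subunit, on 85 probe sets. Where several probe sets named a gene, the brightest one on average was used. Mrpl53 was left out because its probe set is also assigned to Ccdc142.

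The tested animals were 4 PrlR+/- mice, heterozygous for a germline null allele of the prolactin receptor, and they were set against 3 PrlR+/+ mice with the receptor intact. All were females on a C57BL/6 background, mated at 12 to 16 weeks of age and killed on day 15 of pregnancy, and the islets of each mouse went onto an Affymetrix expression array of their own. Each labelling started from 250 ng of RNA, with an integrity number (RIN) above 8.5. The null allele is carried by every cell of the PrlR+/- mice, and whole islets hold several cell types, so a lower value from fewer cells of a type and one from less RNA per cell cannot be told apart.

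The mitochondrial ribosome translates the few messenger RNAs that mitochondrial DNA encodes, all of them for subunits of the oxidative phosphorylation complexes. Its proteins are encoded in the nucleus, made in the cytosol and imported, and then assembled on the ribosomal RNAs that the mitochondrion transcribes itself. Some of these proteins descend from those of bacterial ribosomes and others were added during mitochondrial evolution. In beta cells, oxidative phosphorylation produces the ATP that couples glucose to insulin secretion. Prolactin and placental lactogens activate the prolactin receptor, which passes the signal to the transcription factor STAT5 by way of the kinase Jak2.

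The deposited values are on a log2 scale, where a difference of 1 is a doubling. They ran from 1.73 to 13.97, and the median gene lay between 7.34 and 7.37 on every array. The hormone genes of the islet were bright, with Ins2 at 13.29 ± 0.04 in PrlR+/- and 13.31 ± 0.04 in PrlR+/+ islets (SD, n = 4 and 3) and Gcg at 13.55 ± 0.07 and 13.49 ± 0.02. Of 12 acinar cell markers 10 were measured here, with a mean level of 11.61 to 12.16 in PrlR+/- islets and 11.51 to 11.87 in PrlR+/+ islets. Differences below are PrlR+/- minus PrlR+/+, with standard errors (SE) and unadjusted and Benjamini-Hochberg adjusted p-values from limma's moderated linear model over all genes. The threshold was an adjusted p of 0.05. By limma, 0 genes of the whole array passed (0% of 19938), and 438 (2.2%) had an unadjusted p under 0.05. Precision is limited by there being 4 and 3 arrays.

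Nearly all of the mitochondrial ribosomal protein genes were measured well within the range of the array. Their values lay between 6.46 and 12.41, and 76 of 77 had a mean above the 40th percentile of all genes. The exception was Mrpl21, at 6.64 in PrlR+/- and 6.60 in PrlR+/+ islets. The levels of different probe sets are not compared with each other here, since each probe set has its own brightness. The genes are spread over 17 chromosomes, with 11 on chromosome 11 and 8 on chromosome 17.

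No mitochondrial ribosomal protein gene passed the test between PrlR+/- and PrlR+/+ islets, and most differences were small beside the spread between mice. By limma, 0 of the 77 genes had an adjusted p under 0.05, and 0 had an unadjusted p under 0.05. The mean was higher in PrlR+/- islets for 50 genes and lower for 27. That is 64.9% higher, beside 55.7% of all genes. The median difference was 0.05, with quartiles of -0.04 and 0.14, and the median over all genes was 0.01. The range ran from -0.30 for Mrps25 to 0.46 for Mrps26. A difference over 0.2 in size was found for 11 of the 77 genes (14.3%), beside 10.4% of all genes.

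The 2 subunits gave much the same picture. Of the 48 large subunit genes, 30 had a higher and 18 a lower mean in PrlR+/- islets, with a median difference of 0.0433. Of the 29 small subunit genes, 20 had a higher and 9 a lower mean, with a median of 0.055. Single mice moved these medians: that of the large subunit was 0.095 without PrlR+/- 2 and 0.0663 without PrlR+/+ 2, but 0.0167 without PrlR+/- 3, 0.0267 without PrlR+/- 4 and 0.025 without PrlR+/+ 3. That of the small subunit was 0.0967 without PrlR+/- 1 or PrlR+/- 2, 0.085 without PrlR+/+ 1 and 0.0925 without PrlR+/+ 2. It was 0.0467 without PrlR+/- 3 and 0.04 without PrlR+/- 4 or PrlR+/+ 3. The plot of differences by gene shows both sets scattered around a value slightly above 0.

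**Figure D1:**
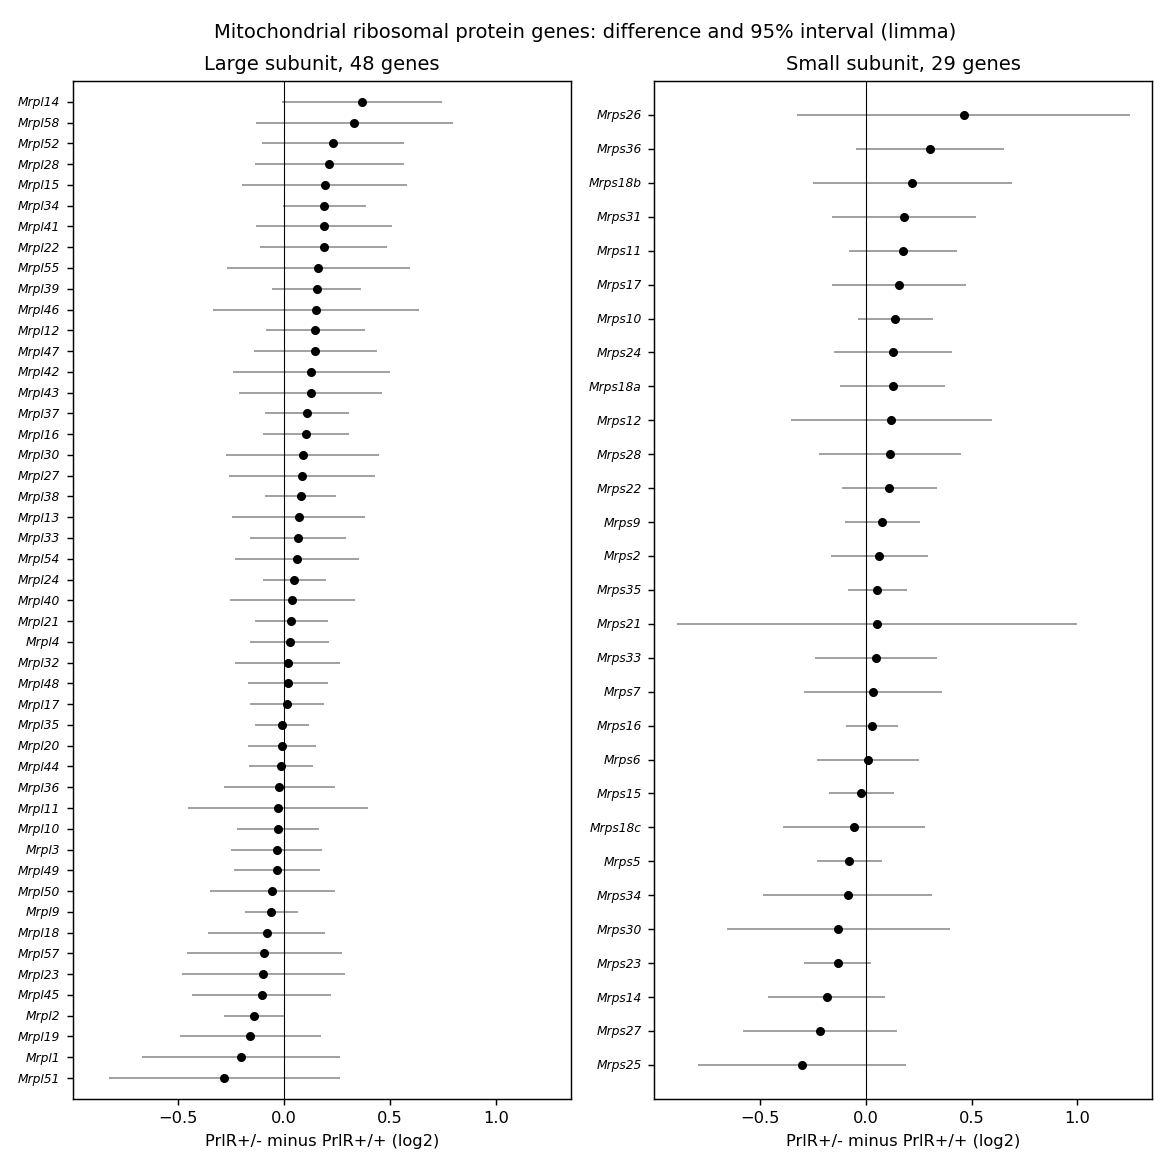
Log2 difference (PrlR+/- minus PrlR+/+) of each of the 77 mitochondrial ribosomal protein genes, sorted within the large and the small subunit, with its 95% confidence interval. All but 11 points lie between -0.2 and 0.2, and the lowest and highest are Mrps25 (-0.30) and Mrps26 (0.46).

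The intervals show what size of difference these arrays could miss. For 64 of the 77 genes (83.1%) the 95% confidence interval of the difference lay within 1.5-fold in both directions, beside 89.9% of all genes. By subunit this held for 42 of 48 large and 22 of 29 small subunit genes. The remaining genes had wider intervals, which still include a difference of more than 1.5-fold in at least 1 direction. These transcripts varied more between mice of a genotype than the median gene, with a median residual standard deviation of 0.18, beside 0.14 over all genes. This was not particular to them. The median SE of the difference was 0.125 for these genes and 0.125 for 55 cytosolic ribosomal protein genes, beside 0.0977 over all genes. Exactly equal values on at least 3 arrays, which lower the spread, were found in 16.9% of these genes and 34.5% of all genes.

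Symbols also separate most of the proteins with a bacterial relative from those found only in mitochondria, because the bacterial numbers end at 36 for the large and 21 for the small subunit. This split goes by number alone, and some higher numbers, such as Mrpl47, also have a bacterial relative. Of the 44 genes with a bacterial number, 28 had a higher and 16 a lower mean in PrlR+/- islets, with a median difference of 0.03. Of the 33 with a higher number, 22 had a higher and 11 a lower mean, with a median of 0.08. A difference over 0.2 in size was found for 4 of the 44 and for 7 of the 33. The difference between these 2 classes was not tested.

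Mrpl2 was the only member whose 2 genotypes did not overlap, beside 2.24% of all genes (1.21% lower and 1.03% higher in PrlR+/-). It encodes a protein of the large subunit near the centre where peptide bonds form, and its probe set was 10445565. In PrlR+/- islets its log2 values were 8.13, 8.14, 7.98 and 8.12, against 8.22, 8.25 and 8.23 in PrlR+/+ islets. The highest PrlR+/- mouse was thus still below the lowest PrlR+/+ mouse, and PrlR+/- 3 was lowest. The means were 8.09 ± 0.08 and 8.23 ± 0.02 (SD, n = 4 and 3), and the difference was -0.14 ± 0.06 (SE; limma, unadjusted p = 0.0523, adjusted p = 0.99). The 95% interval of this difference ran from -0.28 to 0.002.

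Mrpl14 and Mrpl58 had the largest positive differences of the large subunit. Mrpl14 encodes a protein of the subunit interface to which the assembly factor Malsu1 binds. Its values were 8.75, 8.43, 8.99 and 9.08 in PrlR+/- islets, against 8.49, 8.57 and 8.28 in PrlR+/+ islets. All PrlR+/- mice but 1 lay above all PrlR+/+ mice, and that 1, PrlR+/- 2, lay within their range. The difference was 0.37 ± 0.16 (SE; limma, unadjusted p = 0.056, adjusted p = 0.99), and without PrlR+/- 2 it was 0.49. It was smaller, at 0.28, without PrlR+/- 4 or PrlR+/+ 3, and 0.31 without PrlR+/- 3. Mrpl58, also known as Ict1, encodes a peptidyl-tRNA hydrolase that is built into the large subunit and releases stalled chains. It stood at 9.53, 9.36, 9.83 and 10.22 in PrlR+/- islets, against 9.42, 9.53 and 9.26 in PrlR+/+ islets. Its highest values were those of PrlR+/- 3 and PrlR+/- 4, while the other PrlR+/- mice lay within the PrlR+/+ range. The difference was 0.33 ± 0.20 (SE), and without PrlR+/- 4 it was 0.17.

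Mrpl52 and Mrpl28 completed the upper end of the large subunit. For Mrpl52, a protein without a bacterial relative, the values were 9.09, 9.19, 9.43 and 9.63 in PrlR+/- islets, against 9.23, 8.92 and 9.16 in PrlR+/+ islets. The groups overlapped, and the difference was 0.23 ± 0.14 (SE), or 0.13 without PrlR+/- 4 and 0.14 without PrlR+/+ 2. For Mrpl28, a relative of a bacterial protein, they were 8.35, 8.13, 8.51 and 8.53 in PrlR+/- islets, against 8.19, 8.43 and 7.88 in PrlR+/+ islets. Here the difference of 0.21 ± 0.15 (SE) leaned on the low value in PrlR+/+ 3, without which it was 0.07, and was 0.345 without PrlR+/+ 2.

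At the lower end of the large subunit stood Mrpl51, Mrpl1 and Mrpl19, all 3 with PrlR+/- 4 as the lowest mouse. Mrpl51, a protein specific to mitochondria, had 9.24, 9.40, 9.04 and 8.42 in PrlR+/- islets, against 9.53, 9.08 and 9.31 in PrlR+/+ islets. Its difference of -0.28 ± 0.23 (SE) was -0.08 without PrlR+/- 4 and -0.17 without PrlR+/+ 1. Mrpl1, a protein of the stalk where spent transfer RNAs leave the ribosome, had 9.20, 9.40, 9.31 and 8.76 in PrlR+/- islets, against 9.55, 8.98 and 9.58 in PrlR+/+ islets. PrlR+/+ 2 was low as well, so the groups overlapped widely. The difference was -0.20 ± 0.20 (SE), and -0.07 without PrlR+/- 4, -0.11 without PrlR+/+ 1, -0.10 without PrlR+/+ 3 and -0.40 without PrlR+/+ 2. Mrpl19 had 8.88, 8.96, 8.80 and 8.49 in PrlR+/- islets, against 9.18, 8.74 and 8.91 in PrlR+/+ islets. The difference came to -0.16 ± 0.14 (SE), and was -0.04 without PrlR+/+ 1, -0.06 without PrlR+/- 4 and -0.26 without PrlR+/+ 2.

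**Figure D2:**
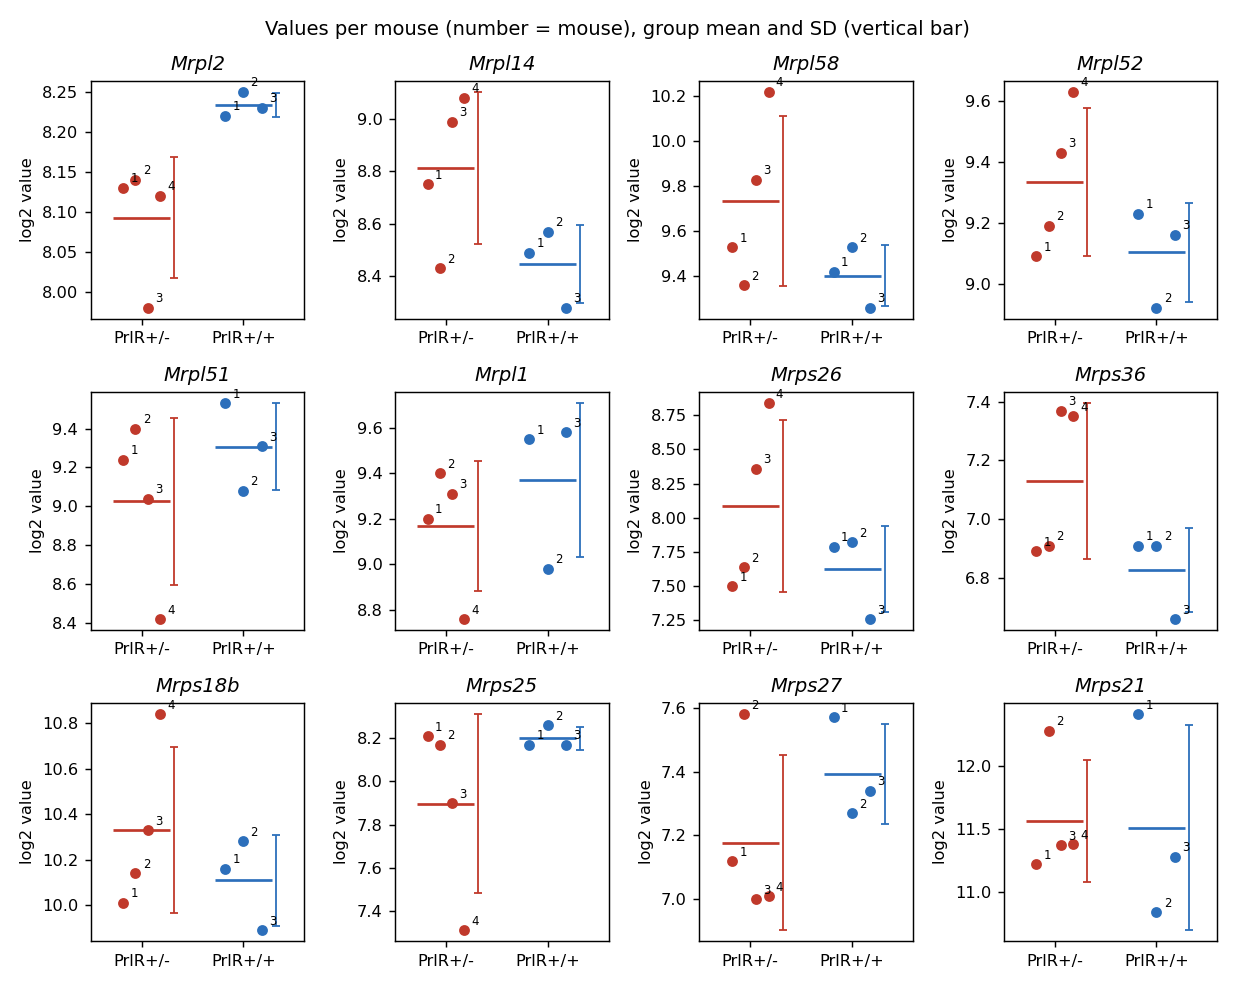
Log2 value of named mitochondrial ribosomal protein genes in each mouse, with PrlR+/- mice left of PrlR+/+ mice in each panel a horizontal line at each mean and a vertical bar for the SD. Mrpl2 is the gene whose genotypes do not overlap (7.98 to 8.14 in PrlR+/-, 8.22 to 8.25 in PrlR+/+).

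In the small subunit, Mrps26 had the highest and Mrps25 the lowest difference of all 77 genes, and both belong to the proteins without a bacterial relative. Mrps26 had 7.50, 7.64, 8.36 and 8.84 in PrlR+/- islets, against 7.79, 7.82 and 7.26 in PrlR+/+ islets. PrlR+/- 3 and PrlR+/- 4 thus lay above every PrlR+/+ mouse, PrlR+/- 1 and PrlR+/- 2 lay within the PrlR+/+ range, and PrlR+/+ 3 was the lowest mouse. The means were 8.09 and 7.62, and the difference was 0.46 ± 0.34 (SE), with an interval from -0.32 to 1.25. It was 0.21 without PrlR+/- 4 and 0.28 without PrlR+/+ 3. Mrps25 had 8.21, 8.17, 7.90 and 7.31 in PrlR+/- islets, against 8.17, 8.26 and 8.17 in PrlR+/+ islets. Here PrlR+/- 4 was the lowest mouse by a wide margin. The difference of -0.30 ± 0.21 (SE) was -0.11 without it.

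Mrps36 and Mrps18b followed at the upper end. Mrps36 carries the name of a ribosomal protein, but its product is now known as a part of the 2-oxoglutarate dehydrogenase complex of the citric acid cycle. It had 6.89, 6.91, 7.37 and 7.35 in PrlR+/- islets, against 6.91, 6.91 and 6.66 in PrlR+/+ islets. Both higher values were those of PrlR+/- 3 and PrlR+/- 4, and the difference was 0.30 ± 0.15 (SE; limma, unadjusted p = 0.0809, adjusted p = 0.99). Mrps18b had 10.01, 10.14, 10.33 and 10.84 in PrlR+/- islets, against 10.16, 10.28 and 9.89 in PrlR+/+ islets. The difference came to 0.22 ± 0.20 (SE), or 0.05 without PrlR+/- 4 and 0.11 without PrlR+/+ 3. Mrps31 ranged from 7.61 to 8.20 in PrlR+/- and from 7.66 to 7.85 in PrlR+/+ islets, with a difference of 0.18 ± 0.15 (SE). That difference was 0.10 without PrlR+/- 3, 0.12 without PrlR+/- 4 or PrlR+/+ 1 and 0.297 without PrlR+/- 2.

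Mrps27, Mrps14 and Mrps23 had the other low differences of the small subunit. For Mrps27, a pentatricopeptide repeat protein, the values were 7.12, 7.58, 7.0 and 7.01 in PrlR+/- islets, against 7.57, 7.27 and 7.34 in PrlR+/+ islets. PrlR+/- 1, 3 and 4 lay below all PrlR+/+ mice and PrlR+/- 2 lay at their upper end. The difference was -0.22 ± 0.16 (SE), and -0.35 without PrlR+/- 2 but -0.13 without PrlR+/+ 1. Mrps14, a protein of the head of the small subunit, ranged from 7.23 to 7.68 in PrlR+/- and from 7.62 to 7.79 in PrlR+/+ islets, with a difference of -0.18 ± 0.12 (SE), or -0.10 without PrlR+/- 4. Mrps23 ranged from 9.64 to 9.78 in PrlR+/- and from 9.75 to 9.93 in PrlR+/+ islets, with a difference of -0.13 ± 0.07 (SE), or -0.08 without PrlR+/+ 2. For both genes the groups overlapped, with the lowest mice in PrlR+/- islets and the highest in PrlR+/+ islets.

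The 3 relatives of bacterial protein S18 allow a comparison within a family, since mammals have 3 genes for it. The products of Mrps18b and Mrps18c are small subunit proteins, whereas that of Mrps18a has been placed in the large subunit in mammalian structures. Mrps18a had 9.64, 9.57, 9.98 and 9.85 in PrlR+/- islets, against 9.64, 9.68 and 9.58 in PrlR+/+ islets, a difference of 0.13 ± 0.11 (SE), or 0.05 without PrlR+/- 3. Mrps18c had 8.23, 8.00, 8.38 and 8.25 in PrlR+/- islets, against 8.13, 8.59 and 8.09 in PrlR+/+ islets, a difference of -0.05 ± 0.14 (SE). Without PrlR+/+ 2 the difference of Mrps18c was 0.10. All 3 relatives overlapped between the genotypes. Mrps30, which has likewise been placed in the large subunit, ranged from 6.75 to 7.71 in PrlR+/- and from 7.27 to 7.70 in PrlR+/+ islets, with a difference of -0.13 ± 0.23 (SE), which ran from -0.27 without PrlR+/- 3 to 0.05 without PrlR+/- 2.

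Mrps21 varied most between mice of 1 genotype, with a residual standard deviation of 0.64. It encodes a small subunit protein with a bacterial relative. Its values were 11.22, 12.28, 11.37 and 11.38 in PrlR+/- islets, against 12.41, 10.84 and 11.28 in PrlR+/+ islets. PrlR+/- 2 and PrlR+/+ 1 were about as high as each other, and every other mouse was well below them. The difference was 0.05 ± 0.40 (SE), which ran from -0.28 without PrlR+/+ 2 to 0.50 without PrlR+/+ 1.

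Several members were also chosen by name for their role. Mrpl12, the stalk protein that also binds the mitochondrial RNA polymerase in human cells, had 8.10, 8.05, 8.02 and 8.26 in PrlR+/- islets, against 7.87, 8.16 and 7.85 in PrlR+/+ islets, a difference of 0.15 ± 0.10 (SE). It was 0.25 without PrlR+/+ 2, 0.09 without PrlR+/+ 3 and 0.10 without PrlR+/- 4. Mrpl11, at the base of that stalk, ranged from 7.66 to 8.27 in PrlR+/- and from 7.84 to 8.36 in PrlR+/+ islets, a difference of -0.03 ± 0.18 (SE), which ran from -0.12 without PrlR+/+ 1 to 0.14 without PrlR+/+ 2. Mrpl3, a core protein of the large subunit, ranged from 9.16 to 9.45 in PrlR+/- and from 9.21 to 9.46 in PrlR+/+ islets, a difference of -0.03 ± 0.09 (SE), which ran from -0.09 without PrlR+/- 3 or PrlR+/+ 3 to 0.035 without PrlR+/+ 2. These ranges overlapped almost fully. Mrpl44, which has a fold related to ribonuclease III, was among the steadiest, with 7.32, 7.22, 7.12 and 7.25 in PrlR+/- islets, against 7.29, 7.22 and 7.22 in PrlR+/+ islets.

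On the small subunit side, Mrps12 encodes a protein of the decoding centre. It had 7.22, 7.23, 7.21 and 7.69 in PrlR+/- islets, against 7.23, 7.61 and 6.81 in PrlR+/+ islets. PrlR+/- 1, 2 and 3 were nearly equal and PrlR+/- 4 lay above them, while the PrlR+/+ mice were spread on both sides. The difference was 0.12 ± 0.20 (SE), and was 0.003 without PrlR+/- 4, -0.08 without PrlR+/+ 3 and 0.32 without PrlR+/+ 2. Mrps34, which in human and mouse cells is needed for a stable small subunit, ranged from 7.32 to 7.92 in PrlR+/- and from 7.62 to 8.08 in PrlR+/+ islets, a difference of -0.09 ± 0.17 (SE), which ran from -0.17 without PrlR+/+ 3 to 0.06 without PrlR+/+ 2. Mrps22 ranged from 7.39 to 7.77 in PrlR+/- and from 7.42 to 7.53 in PrlR+/+ islets, a difference of 0.11 ± 0.10 (SE). It was 0.05 without PrlR+/- 4 and 0.18 without PrlR+/- 2. Mutations of MRPS22, and of MRPS16 in the same subunit, cause mitochondrial disease in humans.

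Mrps16 shows how the deposited table can limit small differences. It had 8.34, 8.43, 8.37 and 8.34 in PrlR+/- islets and 8.34 in all 3 PrlR+/+ islets. Of the 77 genes, 13 (16.9%) had at least 3 arrays with exactly the same value, in each case the median of the 7 arrays, beside 34.5% of all genes. In 4 members, Mrps16, Mrpl24, Mrpl49 and Mrps6, all PrlR+/+ arrays held 1 value, and Mrpl24, Mrpl49 and Mrps6 were named after this was seen. Equal values shrink the spread that the test uses, and how they arose is not given in the sources used here.

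Mice of 1 genotype were spread more widely across these genes than the genotype medians were apart. After each gene was centred on its mean over the 7 mice, the mean of the large subunit genes was 0.01, -0.10, 0.10 and 0.08 in PrlR+/- 1 to 4, against -0.01, 0.01 and -0.09 in PrlR+/+ 1 to 3. The small subunit genes gave -0.04, -0.08, 0.09 and 0.11 in PrlR+/- islets, against 0.02, 0.03 and -0.13 in PrlR+/+ islets. In both subunits PrlR+/- 3 and PrlR+/- 4 were the highest mice and PrlR+/- 2 and PrlR+/+ 3 the lowest. The mean over all genes stayed between -0.007 and 0.016 on every array. The plot of list means shows the same mice at the top and at the bottom in both subunits.

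**Figure D3:**
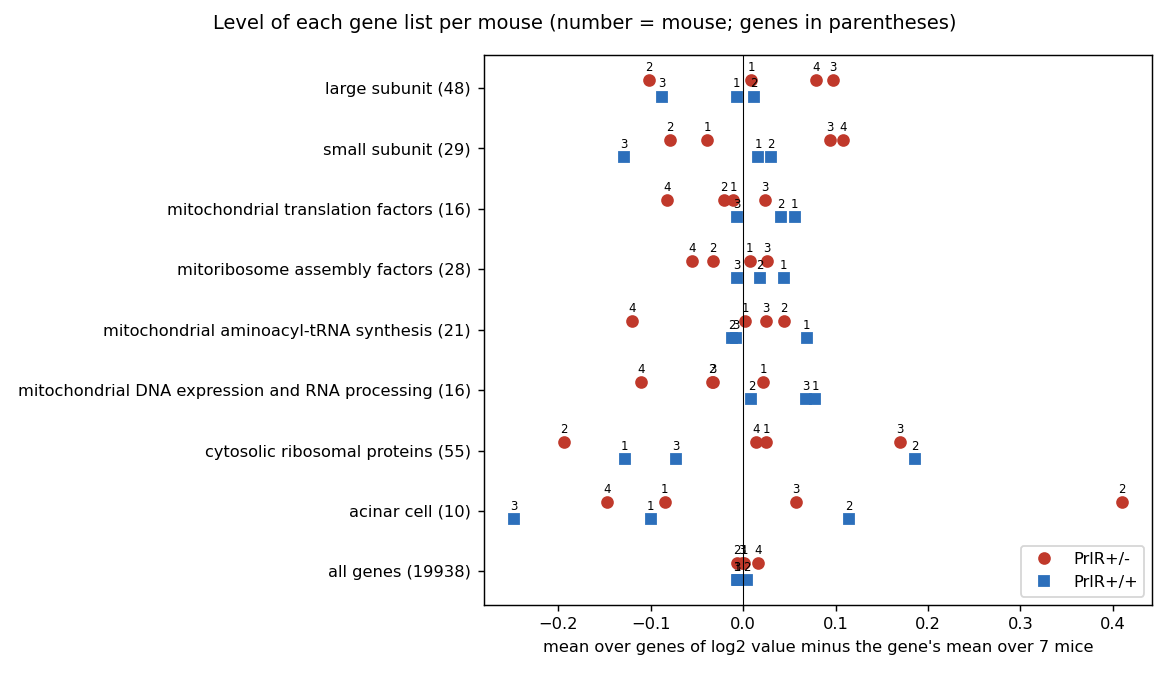
Mean of gene-centred log2 values per mouse for the large and small subunit genes, other gene lists, acinar markers and all genes; red circles are PrlR+/- and blue squares PrlR+/+ mice, each with its number. In both subunits PrlR+/- 2 and PrlR+/+ 3 lie lowest, while all genes stay within -0.007 to 0.016.

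Counted gene by gene, PrlR+/- 4 was the highest mouse for 29 of the 77 genes (37.7%, beside 29.3% of all genes) and PrlR+/- 3 for 17 (22.1%, beside 15.8%). PrlR+/- 2 was the lowest for 22 (28.6%, beside 15.9%) and PrlR+/+ 3 for 20 (26.0%, beside 11.2%). Within the PrlR+/- group, mouse 2 lay below mouse 4 for 60 of the 77 genes (77.9%, beside 55.5% of all genes) and below mouse 3 for 54 (70.1%, beside 43.1%). Within the PrlR+/+ group, mouse 1 lay above mouse 3 for 57 genes (74.0%, beside 42.7%). Of the other pairs of 1 genotype, only PrlR+/- 3 and PrlR+/- 4 were split nearly evenly. Mouse 3 lay above mouse 4 for 39 genes (50.6%, beside 42.0%) and below it for 37 (48.1%, beside 52.3%). PrlR+/- 1 lay above PrlR+/- 2 for 50 (64.9%, beside 45.9%). It lay below PrlR+/- 3 for 50 (64.9%, beside 43.0%) and below PrlR+/- 4 for 49 (63.6%, beside 53.5%). PrlR+/+ 2 lay above PrlR+/+ 3 for 50 (64.9%, beside 46.3%) and above PrlR+/+ 1 for 42 (54.5%, beside 47.7%). Members are not independent replicates of a mouse, and these counts carry no test.

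Other measures also differed between these mice. The acinar marker mean was 11.67, 12.16, 11.81 and 11.61 in PrlR+/- 1 to 4, against 11.65, 11.87 and 11.51 in PrlR+/+ 1 to 3, so it was highest in PrlR+/- 2 and lowest in PrlR+/+ 3. Markers of duct, endothelial and stellate cells also peaked in PrlR+/- 2, at means of 7.77, 9.69 and 8.11, while the endocrine marker mean was lowest in PrlR+/- 4, at 12.39. The mean of 8 macrophage and myeloid markers did not overlap between the genotypes, at 6.87 to 6.95 in PrlR+/- and 6.75 to 6.85 in PrlR+/+ islets. Among them Lyz2, a lysozyme gene named after its values were seen, had a difference of 0.64 ± 0.10 (SE; limma, unadjusted p = 0.000291, adjusted p = 0.99). Fcgr3 was at 0.27, and Cd68, Cd14, Adgre1 and Csf1r were at 0.06, 0.04, 0.02 and 0.01. Itgam (-0.003) and Ptprc (-0.07) were lower in PrlR+/- islets. Lyz2 thus had the largest part in the difference of this list mean. All 6 measured lymphocyte markers had a higher mean in PrlR+/- islets, and their mean peaked in PrlR+/- 4, at 6.22. Adjusted for acinar marker levels, the median difference was 0.06 for the large and 0.08 for the small subunit genes. The centred mean of 55 cytosolic ribosomal protein genes was 0.03, -0.19, 0.17 and 0.01 in PrlR+/- islets, against -0.13, 0.19 and -0.07 in PrlR+/+ islets. It was thus also lowest in PrlR+/- 2, but its highest mouse was PrlR+/+ 2. The part of these measures in the values of the mitochondrial ribosomal protein genes was not tested beyond the acinar covariate.

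Of the 77 genes, 8 had a second probe set, which gives another reading of the same samples. In 6 of the 8 both probe sets had the same direction. Mrps36 agreed closely, with 0.30 from the probe set used and 0.30 from the other, and so did Mrpl41, with 0.19 and 0.18. The differences were -0.10 and -0.12 for Mrpl23, 0.08 and 0.12 for Mrpl27, and 0.05 and 0.05 for Mrps33. Mrps5 gave -0.08 from the probe set used and -0.17 from the other, whose values were 8.48, 8.49, 8.44 and 8.18 in PrlR+/- islets, against 8.54, 8.56 and 8.60 in PrlR+/+ islets. The genotypes did not overlap on that second probe set.

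The other 2 genes gave different readings. Mrpl51, the lowest large subunit gene, had a second probe set with a difference of 0.00, at 9.12, 9.11, 9.20 and 9.13 in PrlR+/- islets, against 9.24, 9.21 and 8.97 in PrlR+/+ islets. The low value of PrlR+/- 4 did not appear there. Mrpl47 had 0.15 from the probe set used and -0.13 from the other. RefSeq lists pseudogenes of 4 members, Mrpl23, Mrpl27, Mrpl48 and Mrps36, whose sequences the same probes may bind, so the values of these 4 are uncertain as to the gene.

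**Figure D4:**
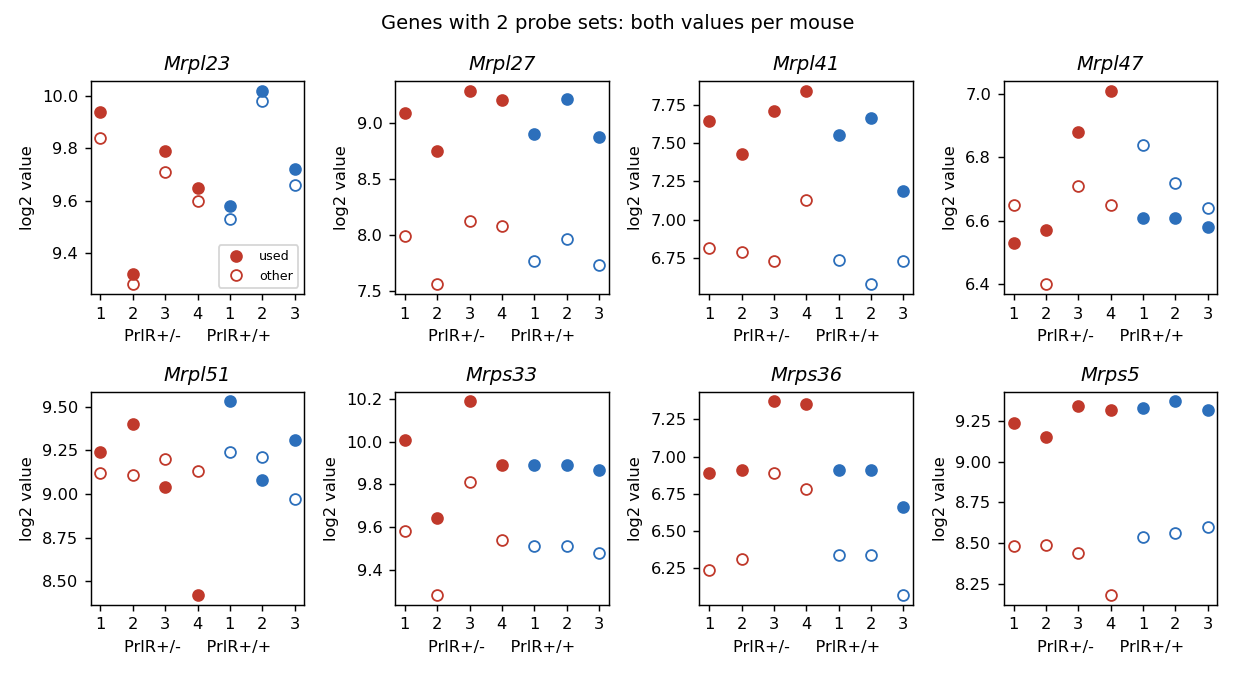
Log2 values per mouse for the 8 genes with 2 probe sets, with filled points for the probe set used and open points for the other; PrlR+/- mice (red) stand left of PrlR+/+ mice (blue). Both sets of Mrps36 are highest in PrlR+/- 3 and PrlR+/- 4, while the low value of Mrpl51 in PrlR+/- 4 (8.42) is absent from the other set (9.13).

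Promoter sequences are shown for the members at the ends of the range and for promoters shared by 2 genes, because they bear on what the genes have in common. They are RefSeq sequences of mouse build GRCm38.p6, 5′ to 3′ on the strand of the gene, and the letters searched on both strands are in capitals. The motifs were GCGCATGC for NRF1, CCGGAAGT for GABP (also called NRF2), AAGATGGC for YY1, GGGCGG for Sp1, CACGTG for the E-box of Myc, CCAAT for the CCAAT box, TATAAA for the TATA box and TTCNNNGAA for STAT5. The first set is the 120 bases before the start of the gene, for Mrpl2 before the most upstream of its 3 listed starts, on chr17:46646101-46646220 (plus strand) for Mrpl2, chr17:45686229-45686348 (plus) for Mrpl14, chr11:115403632-115403751 (plus) for Mrpl58, chr6:125192080-125192199 (plus) for Mrpl51, chr2:130563637-130563756 (plus) for Mrps26 and chr6:92184024-92184143 (minus) for Mrps25.
Mrpl2: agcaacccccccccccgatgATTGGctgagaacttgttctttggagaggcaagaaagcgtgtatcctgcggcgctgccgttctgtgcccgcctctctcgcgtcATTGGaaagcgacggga
Mrpl14: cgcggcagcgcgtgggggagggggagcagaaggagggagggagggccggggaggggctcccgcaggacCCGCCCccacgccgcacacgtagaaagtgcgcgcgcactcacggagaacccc
Mrpl58: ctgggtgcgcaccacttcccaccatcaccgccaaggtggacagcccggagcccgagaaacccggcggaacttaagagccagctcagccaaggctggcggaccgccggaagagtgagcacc
Mrpl51: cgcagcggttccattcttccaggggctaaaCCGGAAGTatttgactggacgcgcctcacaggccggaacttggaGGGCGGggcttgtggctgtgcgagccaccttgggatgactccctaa
Mrps26: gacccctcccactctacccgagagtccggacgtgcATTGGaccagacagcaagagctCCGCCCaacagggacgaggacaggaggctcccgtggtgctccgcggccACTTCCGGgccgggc
Mrps25: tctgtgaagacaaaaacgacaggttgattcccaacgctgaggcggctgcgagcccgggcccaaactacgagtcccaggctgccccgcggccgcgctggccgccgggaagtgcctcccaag
The CCAAT letters stand at 2 places before Mrpl2, both on the other strand, and GABP and Sp1 letters stand before Mrpl51 and Mrps26. None of the letters searched was found in these 120 bases of Mrpl58 and Mrps25, which says only that they are not in this stretch. The lowest large subunit gene, Mrpl51, and the highest small subunit gene, Mrps26, thus both hold the GABP letters.

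Many of these genes share a promoter region with a gene on the other strand. Of 68 members with a promoter sequence, 24 (35.3%) overlapped in their window of 250 bases before to 50 bases after the start with the window of a gene on the opposite strand. Among 17491 protein-coding genes this held for 12.5%. The second set shows the bases between the 2 starts of 3 such pairs. Mrps11 and Mrpl46 are both mitochondrial ribosomal protein genes. Sars2 encodes the mitochondrial seryl-tRNA synthetase, and Twnk the helicase of mitochondrial DNA. These stretches lie on chr7:78783090-78783130 (plus) for Mrps11 and Mrpl46, chr7:28741822-28741967 (minus) for Mrps12 and Sars2, and chr19:45006443-45006557 (minus) for Mrpl43 and Twnk.
Mrps11 and Mrpl46: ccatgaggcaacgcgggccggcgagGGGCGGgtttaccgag
Mrps12 and Sars2: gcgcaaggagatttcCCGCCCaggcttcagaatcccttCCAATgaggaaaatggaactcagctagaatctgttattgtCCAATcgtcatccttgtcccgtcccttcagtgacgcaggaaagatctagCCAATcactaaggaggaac
Mrpl43 and Twnk: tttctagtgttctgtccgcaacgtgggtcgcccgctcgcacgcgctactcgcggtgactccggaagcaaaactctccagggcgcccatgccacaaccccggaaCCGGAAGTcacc
Starts of Mrps11 and Mrpl46 lie only 42 bases apart. Mrps11 had 7.88, 7.83, 8.21 and 8.18 in PrlR+/- islets, against 7.88, 7.83 and 7.84 in PrlR+/+ islets, a difference of 0.18 ± 0.11 (SE). Mrpl46 had 8.11, 7.81, 8.50 and 8.63 in PrlR+/- islets, against 7.99, 8.36 and 7.98 in PrlR+/+ islets, a difference of 0.15 ± 0.21 (SE). Both were highest in PrlR+/- 3 and PrlR+/- 4, and both were named for the shared promoter and not by the rule for named genes.

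Of 20 overlapping pairs of a member and a measured neighbour that is not a member, 13 had differences of the same direction. The share among unrelated pairs of genes is not given here, so this count has no background and was not tested. Mrps11 and Mrpl46, both members, are not in this count. Mrps12 was at 0.12 and Sars2 at -0.09 ± 0.16 (SE), while Mrpl43 was at 0.13 and Twnk at 0.03 ± 0.09 (SE). Mrpl14, at 0.37, stands back to back with Tmem63b, at -0.01 ± 0.06 (SE). Mrpl2, at -0.14, does so with Klc4, at 0.02 ± 0.05 (SE). The neighbours of these 2 members thus lay close to 0.

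Counted over all 74 promoter windows of members, the letters for YY1, GABP and NRF1, transcription factors known to act on nuclear genes of mitochondrial proteins, stood in a larger share than in promoters at large. YY1 letters were found in 12 windows (16.2%), beside 2.75% of all 32851 windows. GABP letters were found in 12 (16.2%, beside 3.89%) and NRF1 letters in 8 (10.8%, beside 2.71%). Against protein-coding genes alone the shares were 3.05%, 5.15% and 3.51%. Sp1 letters stood in 52.7% of member windows (35.7% of all), CCAAT in 39.2% (37.4%), the E-box in 9.46% (7.15%) and TATAAA in 6.76% (13.6%). For protein-coding genes alone these shares were 46.2%, 38.2%, 7.84% and 12.6%, so the Sp1 share of members was closer to that background. Letters for STAT5 were found in 6 windows, or 8.11%, beside 8.3% of all and 7.69% of protein-coding windows. Member windows held a median of 58.5% G and C and 21 CpG dinucleotides, beside 56.3% and 13 for protein-coding genes, so base composition differed as well. A match is not a binding site.

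Among members with these letters, the median difference was 0.04 for the 12 genes with GABP letters, 0.04 for the 8 with NRF1 letters, 0.07 for the 12 with YY1 letters and 0.10 for the 6 with STAT5 letters, beside 0.05 for all 77. It was 0.13 for the 5 with TATAAA and -0.02 for the 5 with the E-box, the one of these medians below 0. No test was run on these groups. STAT5 letters stood in the windows of Mrpl30, Mrpl34, Mrpl42, Mrpl50, Mrps22 and Mrps25. Mrps25 had the lowest difference of all members (-0.30, or -0.11 without PrlR+/- 4), and Mrpl50 was at -0.06. Mrpl34 (0.19), Mrpl42 (0.13), Mrps22 (0.11) and Mrpl30 (0.09) were higher in PrlR+/- islets.

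**Figure D5:**
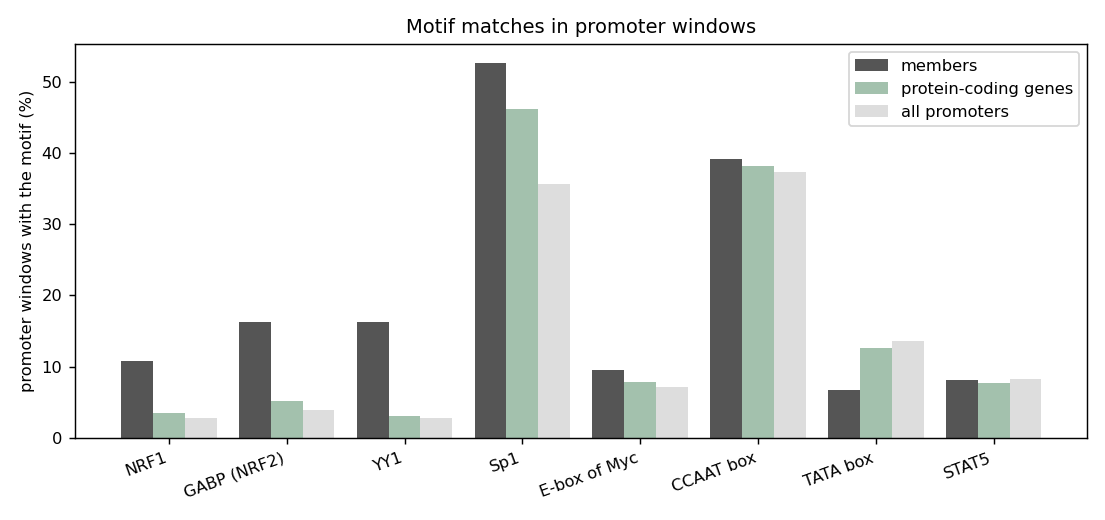
Share of promoter windows (percent) that hold the letters of each motif on either strand, for 74 windows of members (dark grey), protein-coding genes (green) and all 32851 windows (light grey). The bars of members are taller for NRF1, GABP and YY1 (10.8%, 16.2% and 16.2%) than those of all windows (2.71%, 3.89% and 2.75%).

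The rest of the machinery of mitochondrial gene expression was described from lists of genes by role, and by limma 0 genes passed in any of them. A further 4 mitochondrial ribosome proteins with other symbols were measured, 3 with a higher and 1 with a lower mean in PrlR+/- islets and a median difference of 0.01. Of these, Gadd45gip1 was at 0.24 ± 0.13 and Ptcd3 at -0.07 ± 0.14 (SE). Translation factors, which start, extend and end the chain on this ribosome, had 4 higher and 11 lower means among 16 genes, with a median of -0.08. Tsfm, the exchange factor for the elongation factor, was at -0.15 ± 0.07 and Mtfmt, which formylates the initiator transfer RNA, at -0.11 ± 0.06 (SE).

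Assembly factors, which build the ribosome, had 13 higher and 15 lower means among 28 genes, with a median of -0.01. Rcc1l was at -0.21 ± 0.10 and the protease gene Spg7, whose product takes part in processing Mrpl32, at -0.12 ± 0.06 (SE). The genotypes did not overlap for Rcc1l, at 7.42 to 7.81 in PrlR+/- and 7.84 to 7.92 in PrlR+/+ islets, beside 2.24% of all genes. Aminoacyl-tRNA synthesis genes had 10 higher and 11 lower means among 21, with a median of -0.04. Among them Rars2 was at -0.16 ± 0.08 and Pars2 at 0.16 ± 0.10 (SE).

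Genes of mitochondrial DNA expression and RNA processing had 6 higher and 10 lower means among 16, with a median of -0.05. Tfb2m, a transcription initiation factor of mitochondrial DNA, had 9.28, 9.34, 9.11 and 8.72 in PrlR+/- islets, against 9.44, 9.43 and 9.53 in PrlR+/+ islets. The genotypes did not overlap, as for 2.24% of all genes (1.21% lower in PrlR+/-), and PrlR+/- 4 was lowest. The difference was -0.35 ± 0.15 (SE; limma, unadjusted p = 0.0444, adjusted p = 0.99). Pnpt1, a ribonuclease gene, was at -0.23 ± 0.11 (SE). Regulators of mitochondrial biogenesis had 7 higher and 7 lower means among 14, with a median of 0.01. Max, the partner of Myc, was at 0.26 ± 0.21 and Esrra, a nuclear receptor that acts on mitochondrial genes, at -0.07 ± 0.06 (SE). Transcripts encoded by mitochondrial DNA itself were not analysed here.

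Cytosolic ribosomal proteins offer a comparison with the other ribosome of the cell. Of 55 measured, 32 had a higher and 23 a lower mean in PrlR+/- islets, with a median of 0.02. Rpl30 was at -0.19 ± 0.07 (SE; limma, unadjusted p = 0.036, adjusted p = 0.99) and Rpl12 at -0.33 ± 0.16 (SE). The genotypes did not overlap for Rpl30, at 7.58 to 7.76 in PrlR+/- and 7.82 to 7.96 in PrlR+/+ islets, beside 2.24% of all genes. The 2 ribosomes were not tested against each other.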

How the data were processed

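The values are the authors' deposited log2 expression levels, to 2 decimals, for each of the 7 mice. Per the submitters' processing notes they were made with Affymetrix Expression Console 1.2.0.20; which background correction, normalization and summary were used is not given in the sources used here. Scan batches were not analysed here, so a batch was not tested. Groups came from the source labels, and each numbered sample was taken as a separate mouse.

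Of 35556 probe sets, 21789 had 1 symbol in the platform annotation, 1621 several and 12146 none listed; the first kind gave 19938 genes, with the brightest probe set for each. No further scaling or filter was applied. RefSeq (GRCm38.p6) entries changed 0 symbols. The genotypes rest on the labels alone, since the targeted gene was not analysed here.

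limma 3.58.1 (lmFit, eBayes) in R 4.3.3 was fitted over all genes, 2-sided, with tables handled in pandas 2.3.3 under Python 3.11.15. On simulated data (20 runs, 19938 genes, 200 changed) the share of changed genes called was 54.1% at 1.5-fold, 84.2% at 2-fold and 98.3% at 4-fold, and 5.23% of the calls were false. Values were drawn independently from normal distributions with each gene's own residual standard deviation, which equal values lower in many genes. The changed genes were drawn from all genes. Members had a larger median standard deviation (0.18, beside 0.14), so these shares do not apply to them directly. Arrays have no read depth.

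The members, lists and tests were chosen with earlier results of these data known. The genes named are members past the threshold or with groups that do not overlap, the 4 highest and 4 lowest differences of each subunit, the 4 largest residual standard deviations, 12 members chosen by name for role or disease, and the 2 smallest unadjusted p-values of each pathway list. Further genes are named for a shared promoter, motif letters, a second probe set, a pseudogene, equal values or as a marker. Alternatives were other eBayes variance models, array weights, quantile normalization, median centring, a filter at the 40th percentile, means or medians of probe sets, an acinar marker covariate, a replicate block, omission of each mouse in turn and other thresholds.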

Additional observations from a re-analysis of the deposited data

Results flagged for a closer look

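In 3 of 30 sets of values from the 4 PrlR+/- mice, a single mouse lay far from the other PrlR+/- mice, by Dixon's test at its 95% critical value. Chance alone picks out about 1 in 20 groups taken at random, so a few such sets can arise without any difference between mice. That rate is only a rough guide here. Many of these genes were named for their spread or their extreme differences in the same values, Mrps21 and Mrpl2 among them. Mrpl2 stood at 7.98 in PrlR+/- 3, where the next PrlR+/- mouse was at 8.12. Mrps21 stood at 12.28 in PrlR+/- 2, where the next was at 11.38, although PrlR+/+ 1 was as high, at 12.41. Mrps12 stood at 7.69 in PrlR+/- 4, where the next was at 7.23, and PrlR+/+ 2 had 7.61. Without PrlR+/- 3 the difference of Mrpl2 was -0.10 in place of -0.14, still lower in PrlR+/- islets. Without PrlR+/- 2 that of Mrps21 was -0.19 in place of 0.05. Without PrlR+/- 4 that of Mrps12 was 0.003 in place of 0.12. The groups of 3 PrlR+/+ mice are too small for this check.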

How the results depend on the processing

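By limma, 0 genes and 0 members were called in each of 17 alternative fits, 7 of them leaving out a mouse, and also at an adjusted p of 0.10; 438 genes and 0 members had an unadjusted p under 0.05 with all mice. The median difference of the large subunit was 0.0167 to 0.095 with a mouse left out, lowest without PrlR+/- 3 and highest without PrlR+/- 2, and that of the small subunit 0.04 to 0.0967, highest without PrlR+/- 1 or PrlR+/- 2. Both medians stayed above 0 in every alternative run, but the median over all genes was often above 0 as well. Without PrlR+/- 3 the large subunit median of 0.0167 equalled that over all genes (0.0167), with 25 of 48 genes higher. Without PrlR+/+ 3 it was 0.025, beside 0.0125 over all genes, again with 25 of 48 higher. A pair of settings was added after the data were seen: with Mrps18a and Mrps30 counted in the large subunit and Mrps36 left out the medians were 0.0433 and 0.0537, and without members that have a pseudogene or a second probe set 0.0433 and 0.06. With the replicate block they were 0.0267 and 0.04. The mice share only a number: same-numbered mice had deviations that correlated at 0.0896, -0.386 and -0.0287. PrlR+/- 4 has no partner and drops out of the blocked difference.

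Of the 28 members named by the rule, 20 kept their direction in every alternative. With array weights the differences turned for Mrps21 (-0.184), Mrps18c (0.041), Mrps34 (0.076), Mrpl44 (0.02) and Mrpl11 (0.128). The acinar covariate turned Mrps21 (-0.072), and quantile normalization Mrpl11 (0.004). With a mouse left out, the ranges that crossed 0 were -0.282 to 0.503 for Mrps21, -0.27 to 0.05 for Mrps30, -0.145 to 0.105 for Mrps18c, -0.082 to 0.318 for Mrps12, -0.172 to 0.058 for Mrps34, -0.047 to 0.02 for Mrpl44, -0.09 to 0.035 for Mrpl3 and -0.12 to 0.14 for Mrpl11. The cause was not tested. All these genes had differences within 1 standard error of 0 with all mice.

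Named members had adjusted p-values of 0.818 to 1.0 by limma in all these fits. Without PrlR+/- 2, 4 large and 3 small subunit genes had an unadjusted p under 0.05, the smallest being Mrpl14 (0.00547; limma, adjusted p = 0.865). With array weights 4 large subunit genes did, among them Mrpl2 and Mrpl14. By limma, the unadjusted p of Mrpl2 was 0.221 with quantile normalization. Without PrlR+/- 3, PrlR+/+ 1 or PrlR+/+ 3, 0 members had an unadjusted p under 0.05. The share of all genes under 0.05 in these fits is not given here, so the member counts have no background. PrlR+/- 4 had the lowest array weight, 0.29, and PrlR+/+ 3 the highest, 2.74. The weights shrank some differences, such as Mrpl52 (0.042 in place of 0.232), Mrps25 (-0.091 in place of -0.303) and Mrps26 (0.226 in place of 0.462). Other differences grew, such as Mrpl1 (-0.274 in place of -0.203) and Mrpl28 (0.279 in place of 0.213).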
